A study of Homo sapiens with 60 samples.

Results

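The genes of gluconeogenesis and of glucose release were followed by name through the count table: 9 genes of 60675, namely G6PC1 (listed as G6PC in GENCODE release 29), SLC37A4, PCK1, PCK2, FBP1, PC, PPARGC1A, SLC2A2 and TAT. They were named by their role in the pathway, with earlier results of these data known. All 9 passed the filter on low counts. The RNA came from HepG2, an established human hepatocellular carcinoma line, harvested 24 h after treatment, in 60 libraries of 25 groups. The 3 vehicle libraries received DMSO alone, which the sample labels put at 0.1% and the series text at 2%. Sibjeondaebo-tang (SDT) and Palmul-tang (PMT), herbal formulas, were given as water extracts. Glycyrrhizae Radix (licorice), Poria Cocos, Panax Ginseng, Atractylodis Rhizoma, Paeoniae Radix and Angelicae Gigantis Radix were given as ethanol extracts (made with 70% ethanol). Each extract was given at 500, 100 and 20 µg/mL, called High, Medium and Low. Each group had 3 libraries, except 2 for each dose of PMT and 1 for each dose of Angelica and Paeonia. All groups share 1 cell line, and the labels do not say that replicates are separate cultures, so every p-value here reflects the variation among these libraries alone, which may be technical.

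Gluconeogenesis makes glucose from lactate, glycerol and amino acids, and in the fasted liver it keeps blood glucose up. PC carboxylates pyruvate to oxaloacetate in mitochondria, and PCK1 (cytosolic) and PCK2 (mitochondrial) turn oxaloacetate into phosphoenolpyruvate. FBP1 removes a phosphate from fructose 1,6-bisphosphate. SLC37A4 carries glucose 6-phosphate into the endoplasmic reticulum, where G6PC1 frees the glucose, and SLC2A2 (GLUT2) is the glucose transporter of the hepatocyte surface. TAT degrades tyrosine, a glucogenic amino acid, and is a classic target of glucocorticoids and glucagon. PPARGC1A encodes PGC-1alpha, a coactivator that raises transcription of gluconeogenic genes in fasting. Insulin lowers several of these transcripts and glucagon raises them.

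On GRCh38 the genes lie at chr17:42900797-42913369 (G6PC1, plus strand), chr11:119024114-119030906 (SLC37A4, minus), chr20:57561080-57568112 (PCK1, plus), chr14:24094053-24110598 (PCK2, plus), chr9:94603133-94640249 (FBP1, minus), chr11:66848233-66958376 (PC, minus), chr4:23755041-23904089 (PPARGC1A, minus), chr3:170996348-171026750 (SLC2A2, minus) and chr16:71565660-71577130 (TAT, minus). Exons of 4 of them share bases with a gene on the opposite strand. These are 544 bases of SLC37A4 with TRAPPC4, 283 of FBP1 with PCAT7, 621 of PC with LRFN4 and 423 of TAT with TAT-AS1. The libraries were directional, but the strand setting of the counting is not stated. FBP1 had 412 counts in all 60 libraries and PCAT7 had 1986, so FBP1 values are uncertain on this ground too.

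RefSeq promoter sequences (GRCh38.p14) were found for 7 of the 9 genes, without PCK1 and TAT. Those of G6PC1 and SLC2A2 are shown because these genes, at the last and export steps of glucose release, had the largest rise and the largest fall among the 9 at the High against the Low dose of Glycyrrhiza. The G6PC1 stretch is chr17:42900549-42900796 on the plus strand, bases -250 to -3 relative to the RefSeq start, and the SLC2A2 stretch is chr3:171026751-171026970 on the minus strand, bases -250 to -31. Capitals mark matches to the motifs searched.
G6PC1: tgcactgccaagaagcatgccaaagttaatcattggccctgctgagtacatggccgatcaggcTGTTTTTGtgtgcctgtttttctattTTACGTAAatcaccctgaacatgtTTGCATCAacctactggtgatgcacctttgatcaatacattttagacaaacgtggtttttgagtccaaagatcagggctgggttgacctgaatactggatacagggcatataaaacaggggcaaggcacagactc
SLC2A2: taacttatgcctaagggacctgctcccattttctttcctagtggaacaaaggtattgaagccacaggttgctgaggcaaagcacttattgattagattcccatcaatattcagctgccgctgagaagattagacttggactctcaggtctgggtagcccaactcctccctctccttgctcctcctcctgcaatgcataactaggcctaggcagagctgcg
The motifs, chosen after the G6PC1 sequence was seen, were searched on both strands of the 250 bases before each start. In G6PC1, TTGCATCA (the other strand of TGATGCAA, a CEBP and ATF4 composite motif) stands at -137 to -130. TTACGTAA, the palindrome of PAR-bZIP factors, stands at -161 to -154, and TGTTTTTG, a variant of the forkhead motif, at -187 to -180. These 3 motifs do not overlap one another, and TGATGCAA was found in 0.772%, TTACGTAA in 0.105% and TGTTTTTG in 1.34% of 35116 promoters. The exact strings TGACGTCA, 1 form of the cyclic AMP element (1.65% of promoters), and GTAAACA, a forkhead core (2.98%), were in none of the 11 promoters of the 7 genes. Only exact letters were searched, so cyclic AMP or forkhead sites with other letters, in G6PC1 or elsewhere, would be missed. No motif was matched in a gene other than G6PC1. A match describes letters only.

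Library totals ran from 19057230 to 33233215 counts. All 10 hepatocyte lineage markers were at 1 CPM (counts relative to the TMM-scaled library total) or more in vehicle, and APOB was the highest at 15476. Markers of other cell types at 1 CPM or more in vehicle were 2 of 7 for fibroblasts and stellate cells, 1 of 5 for endothelium and 3 of 6 for leukocytes, with PTPRC at 0 in every library. Vehicle carries a set code of its own in the sample descriptions and never shares one with an extract, so in comparisons with vehicle the extract and the set cannot be told apart, whereas the doses of an extract share a code. Mitochondrially encoded genes took 13.4% to 15.2% of vehicle counts and 14.7% to 24.8% of those in the replicated treated groups.

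**Figure D1:**
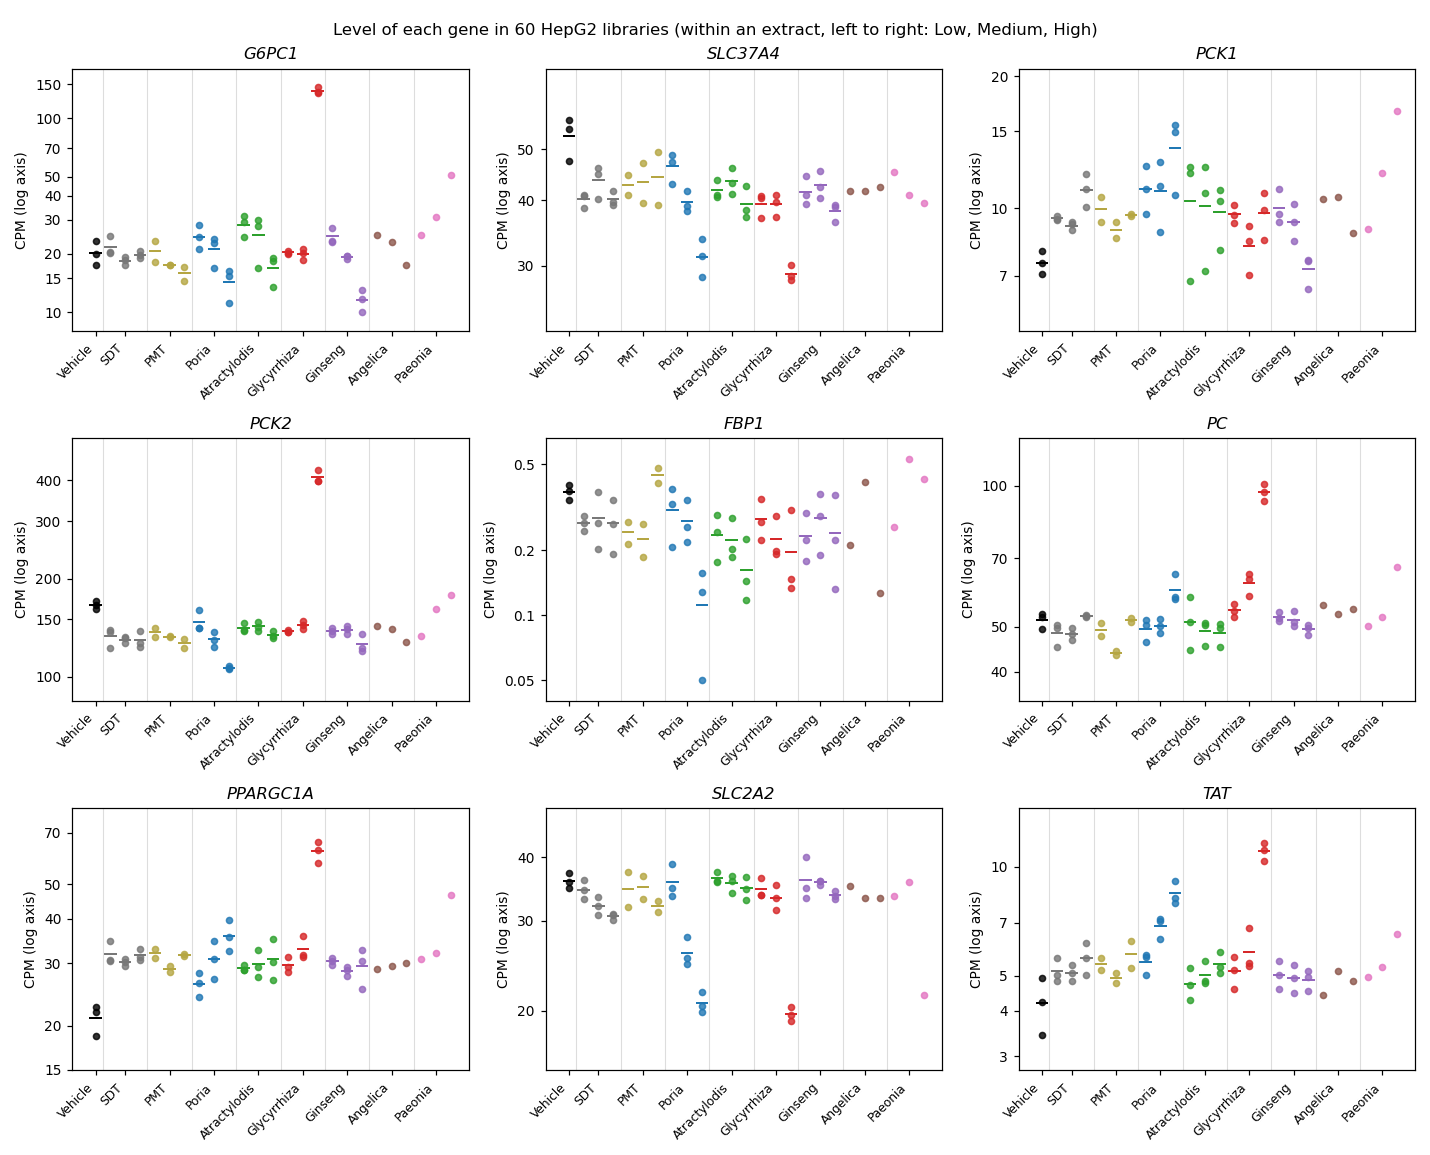
Level of each of the 9 genes in all 60 libraries, in CPM on a log axis, by group. Each point is a library and each bar the mean of a group with 2 or more libraries; within an extract the doses run Low, Medium, High from left to right. The 3 Glycyrrhiza High libraries stand above every other library for G6PC1, PCK2, PC, PPARGC1A and TAT.

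Per kilobase of transcript, the vehicle level was 66.3 CPM for PCK2, 20.4 for SLC37A4, 12.3 for PC, 11.2 for SLC2A2 and 6.56 for G6PC1. PPARGC1A stood at 3.33, PCK1 at 1.73, TAT at 1.05 and FBP1 at 0.251 CPM per kilobase. The mitochondrial carboxykinase gene was thus the most abundant of the 9 and the cytosolic one, PCK1, among the least. FBP1 was near the limit of detection, with 1 to 14 counts per library and 10 or more in 12 of 60 libraries. All other members had at least 91 counts in every library.

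High was compared with Low within each extract, which follows dose without the vehicle. In Glycyrrhiza, 7 of the 9 genes passed the edgeR quasi-likelihood test at an adjusted p of 0.05, beside 56.3% of the 16284 genes tested. G6PC1, PCK2, PC, PPARGC1A and TAT rose, and SLC2A2 and SLC37A4 fell. In Poria, 8 of 9 passed, beside 38.5% of all genes: PPARGC1A, TAT and PC rose, and SLC2A2, G6PC1, SLC37A4, PCK2 and FBP1 fell. In Atractylodis (6.42% of all genes, 3.4% higher and 3.03% lower) and Ginseng (5.66%, 2.63% higher and 3.03% lower), G6PC1 alone passed, and it fell in both. Of all genes, 28.6% rose and 27.7% fell in Glycyrrhiza, and 20.1% rose and 18.4% fell in Poria. The High and Low libraries did not overlap for 7 of 9 members in Glycyrrhiza (62.8% of all genes), 8 in Poria (40.6%), 5 in Ginseng (23.8%), 4 in PMT (38%), 3 in SDT (15.8%) and 2 in Atractylodis (21.3%). In SDT (1.06%) and PMT (0.516%) no member passed by edgeR or DESeq2. An unadjusted edgeR p under 0.05 was found for 1 of 9 in each (SLC2A2 in SDT, G6PC1 in PMT). Of the 16284 genes tested, 1794 in SDT and 1492 in PMT were under it. The median log2 change of the 9 genes was 0.84 in Glycyrrhiza and -0.47 in Poria, where that of all tested genes was 0.01 and 0.00.

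**Figure D2:**
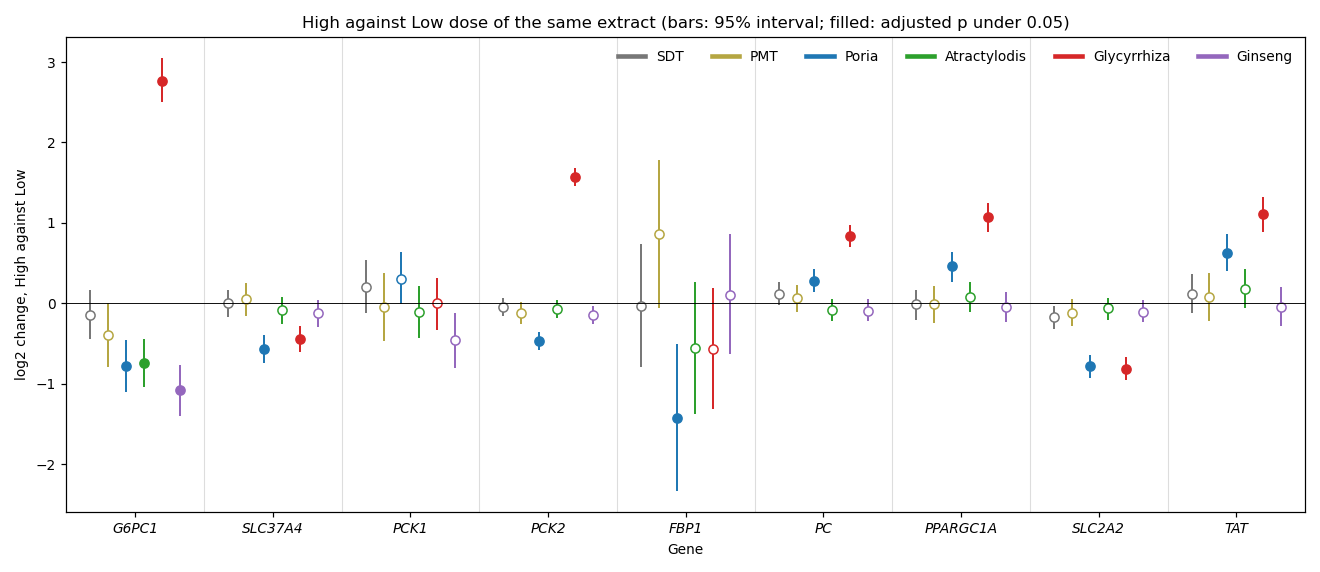
Log2 change of High against Low within each of 6 extracts (y axis) for the 9 genes (x axis). Circles are edgeR estimates, bars their 95% intervals, and filled circles passed the test. G6PC1 spans the widest range among the 9 genes, from -1.08 in Ginseng to 2.77 in Glycyrrhiza.

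G6PC1, the catalytic subunit of glucose 6-phosphatase, responded in opposite directions to different extracts. At the High dose of Glycyrrhiza it read 134.6, 144.7 and 137.7 CPM, against 20.1, 20.3 and 20.7 at Low, 21.1, 20.2 and 18.6 at Medium and 17.6, 19.9 and 23.5 in vehicle. The High libraries stood apart from all the others, while Medium and Low lay inside the vehicle range. The rise over Low was 6.83-fold (log2 2.77, SE 0.13, edgeR adjusted p = 7.57e-23). In a culture of cells, a change in the number of cells that express a gene and a change in RNA per cell cannot be told apart.

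The same gene fell with dose in 3 other single-herb extracts. Ginseng High read 13.1, 11.7 and 9.99 CPM and Ginseng Low 23.4, 27.4 and 23.2, with no overlap, a change of -1.08 (SE 0.15, edgeR adjusted p = 2.17e-06). Poria went from 24.4, 28.1 and 21.1 CPM at Low to 11.2, 16.2 and 15.4 at High (log2 -0.78, SE 0.15, edgeR adjusted p = 5.29e-05). Atractylodis went from 24.4, 31.4 and 29.1 CPM to 13.5, 18.4 and 19.1 (log2 -0.74, SE 0.14, edgeR adjusted p = 4.95e-04). In each of these extracts every High library lay below every Low library. PMT changed by -0.39 (95% interval -0.78 to -0.01, edgeR adjusted p = 0.53), and SDT by -0.14 (-0.43 to 0.16). Without the filter on low counts the PMT change passed, at an edgeR adjusted p of 0.0111. Over the 25 group means, G6PC1 ran from 139 CPM in Glycyrrhiza High through 51.1 in Paeonia High down to 11.6 in Ginseng High, and the libraries of 21 of the 24 neighbouring groups in that order overlapped.

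SLC37A4, the glucose 6-phosphate carrier that works with G6PC1, moved the other way from it in Glycyrrhiza and with it in Poria. It read 30.1, 28.7 and 28.2 CPM in Glycyrrhiza High, against 40.5, 37.1 and 40.7 at Low (log2 -0.44, SE 0.08, edgeR adjusted p = 2.81e-06). In Poria it read 33.7, 28.6 and 31.4 CPM at High, 39.1, 38.2 and 41.7 at Medium and 48.8, 42.9 and 47.4 at Low. High lay below Low without overlap in both extracts, by -0.57 (SE 0.08, edgeR adjusted p = 6.6e-08) in Poria. In the 4 other replicated extracts the High against Low change ran from -0.12 in Ginseng to 0.05 in PMT and did not pass.

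PCK2, the mitochondrial carboxykinase and a known target of the stress factor ATF4, rose in Glycyrrhiza High to 397, 399 and 432 CPM. Low read 137, 137 and 140 CPM, Medium 144, 148 and 140, and vehicle 166, 170 and 162. Only the High dose stood above vehicle, while Medium and Low lay below it. The rise over Low was 2.97-fold (log2 1.57, SE 0.05, edgeR adjusted p = 3.26e-29). Poria High, at 106, 105 and 108 CPM, held the lowest libraries of the series for this gene, against 141, 141 and 160 at Low (log2 -0.47, SE 0.05, edgeR adjusted p = 2.16e-10). In the other replicated extracts PCK2 changed by -0.14 (Ginseng) to -0.04 (SDT) and did not pass. Ginseng passed without its High replicate 1 (log2 -0.20, edgeR adjusted p = 0.0292).

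PCK1, the cytosolic enzyme and the textbook hormone-controlled step, did not share these changes. Glycyrrhiza High read 8.45, 9.89 and 10.8 CPM and Low 10.2, 9.66 and 9.26, a change of 0.00 with a 95% interval of -0.32 to 0.31. In Poria High the libraries read 10.7, 14.9 and 15.5 CPM, against 9.68, 12.5 and 11.1 at Low, and the groups overlapped. That change of 0.31 (0.00 to 0.63) did not pass (edgeR adjusted p = 0.106), but did without Poria High replicate 1 (log2 0.46, edgeR adjusted p = 0.0233) and without the filter on low counts (edgeR adjusted p = 0.00951). Ginseng High, at 7.57, 7.62 and 6.55 CPM, lay below Low, at 9.70, 11.1 and 9.32, without overlap. The change of -0.46 (-0.79 to -0.13) had an edgeR adjusted p of 0.0882, and of 0.0121 when only the groups compared were fitted.

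PC, which feeds oxaloacetate into the pathway, rose with each step of the Glycyrrhiza dose series in its mean: 54.01, 52.49 and 55.89 CPM at Low, 63.1, 64.7 and 58.2 at Medium and 96.7, 101 and 92.9 at High. Neither step showed overlap between its libraries. High against Low was 1.79-fold (log2 0.84, SE 0.06, edgeR adjusted p = 1.2e-16), whereas Medium against Low, at 0.20, did not pass (edgeR adjusted p = 0.054). In Poria PC read 57.9, 57.2 and 64.8 CPM at High and 46.3, 50.3 and 51.6 at Low (log2 0.28, SE 0.06, edgeR adjusted p = 2.63e-04). SDT, PMT, Atractylodis and Ginseng changed by -0.09 to 0.12 and did not pass.

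FBP1, the fructose bisphosphatase, was counted too thinly for a firm statement. Poria High held 1, 3 and 3 counts and Poria Low 10, 8 and 5. Summed per group, 7 against 23 counts gave a ratio of 0.364 with an exact binomial 95% interval of 0.132 to 0.877, which covers counting error only. The fitted change of -1.42 (SE 0.44) passed (edgeR adjusted p = 0.033). It did not pass with DESeq2 (adjusted p = 0.0865), without the filter on low counts (edgeR adjusted p = 0.112), or without any single one of Poria High replicates 1 and 3 and Poria Low replicates 1 and 2 (edgeR adjusted p = 0.0619 to 0.151). No other extract gave a call for FBP1 between High and Low.

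PPARGC1A, the fasting coactivator, read 62.6, 65.8 and 57.6 CPM in Glycyrrhiza High, 31.6, 31.3 and 35.7 at Medium and 28.4, 29.3 and 31.1 at Low. Medium already lay above Low in every library, but that step was not called, and High was 2.10-fold above Low (log2 1.07, SE 0.08, edgeR adjusted p = 1.79e-15). In Poria it read 32.4, 35.5 and 39.6 CPM at High and 24.1, 28.1 and 26.4 at Low (log2 0.46, SE 0.09, edgeR adjusted p = 4.33e-05). The coactivator thus rose in both extracts, while G6PC1 and PCK2 rose in Glycyrrhiza and fell in Poria. In the 4 other replicated extracts PPARGC1A changed by -0.04 to 0.08 between High and Low and did not pass.

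SLC2A2, the hepatocyte glucose transporter, fell in the same extracts. Glycyrrhiza High read 20.3, 19.7 and 19.1 CPM, with 35.2, 33.2 and 31.6 at Medium and 36.4, 33.7 and 33.7 at Low. Poria read 19.9, 20.5 and 21.8 CPM at High, 27.9, 25.4 and 24.7 at Medium and 34.8, 38.8 and 33.6 at Low. Medium stood between the other doses in Poria and overlapped Low in Glycyrrhiza. High against Low was -0.81 (SE 0.06, edgeR adjusted p = 2.31e-15) in Glycyrrhiza and -0.78 (SE 0.06, edgeR adjusted p = 1.16e-13) in Poria. The difference between these changes was -0.03 (95% interval -0.21 to 0.16) and did not pass (edgeR adjusted p = 0.844). In the 4 other replicated extracts the change ran from -0.17 (SDT) to -0.06 and did not pass.

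TAT, the tyrosine aminotransferase, read 11.1, 11.6 and 10.4 CPM in Glycyrrhiza High and 4.60, 5.64 and 5.18 at Low, a 2.15-fold rise (log2 1.11, SE 0.10, edgeR adjusted p = 3.08e-13). Poria read 9.16, 7.96 and 8.19 CPM at High, 6.32, 7.08 and 7.20 at Medium and 5.03, 5.69 and 5.64 at Low. High lay above Medium and Medium above Low in every library (High against Low 0.63, SE 0.11, edgeR adjusted p = 6e-06). No other extract gave a call for TAT between High and Low.

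At the High dose of Poria and of Glycyrrhiza the mitochondrially encoded share of counts was also above that at Low, at 19.7% to 22.3% against 15.8% to 17.5% in Poria and 17.8% to 18.4% against 15.1% to 17% in Glycyrrhiza. With these genes left out of scaling and testing, each of the 351 member calls, positive or negative, was the same. The summed level of the 10 hepatocyte markers was 43768 to 46494 CPM in Glycyrrhiza High and 59262 to 60201 in Glycyrrhiza Low, and 1 of the 10 rose and 8 fell. In Poria it was 66407 to 68811 CPM at High and 58991 to 62470 at Low, with 3 risen and 4 fallen. Their part in the changes of the 9 genes was not tested. Leukocyte markers, mostly LYZ, summed to 976.6 to 1054 CPM in Glycyrrhiza High, 1265 to 1366 in its Low, 1879 to 1978 in Poria High and 1212 to 1328 in its Low, with the defining marker PTPRC at 0 throughout. The 7 fibroblast and stellate markers summed to 55.1 to 57.9 CPM in Glycyrrhiza High, 65.4 to 69.6 in its Low, 45.5 to 47.0 in Poria High and 68.3 to 72.3 in its Low. The 5 endothelial markers summed to at most 3.83 CPM in any library.

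Medium against Low gave calls among the 9 genes in Poria alone, 4 of 9 beside 15.5% of all genes (8.27% higher and 7.26% lower). SLC2A2 fell by 0.46 (SE 0.06, edgeR adjusted p = 3.09e-07), SLC37A4 by 0.23 and PCK2 by 0.18, and TAT rose by 0.33. SLC2A2 passed in each fit with 1 library left out. The other 3 calls rested on single libraries: without Poria Low replicate 1 there were 2 calls, and without Poria Medium replicate 2 or Poria Low replicate 3 there was 1. PPARGC1A was gained without Poria Medium replicate 1 (log2 0.32, edgeR adjusted p = 0.0186) or Poria Low replicate 2 (0.28, 0.0431). In the 5 other extracts no member passed with edgeR, beside 3.5% of all genes in Glycyrrhiza, 0.00614% in SDT and 0% in PMT, Atractylodis and Ginseng. At an unadjusted edgeR p under 0.05 these 5 comparisons held 1 member in Glycyrrhiza (PC), 1 in PMT (PC), 1 in Ginseng (G6PC1) and 0 in SDT and Atractylodis. Of the 16284 genes tested, 2303 in Glycyrrhiza, 842 in PMT, 722 in Ginseng, 787 in SDT and 710 in Atractylodis were under it. The Medium and Low libraries did not overlap for 5 of 9 members in PMT (35.5% of all genes), 4 in Poria (25.5%), 4 in Glycyrrhiza (23.6%), 2 in Ginseng (12.4%), 2 in SDT (9.53%) and 0 in Atractylodis (9%). DESeq2 called 1 member in Glycyrrhiza and 0 in the other 4, and edgeR also called PC in Glycyrrhiza (log2 0.24, adjusted p = 0.0365) without Glycyrrhiza Medium replicate 3.

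Whether the dose response itself differed between extracts was tested as the difference of the High against Low changes. For Glycyrrhiza against each of the 5 other replicated extracts, G6PC1 was higher by 2.91 to 3.85, PCK2 by 1.61 to 2.04, PC by 0.56 to 0.93, PPARGC1A by 0.61 to 1.11 and TAT by 0.48 to 1.15 on the log2 scale. Each of these 25 differences passed, the weakest at an edgeR adjusted p of 0.0069 (TAT against Poria), and each passed in every fit with a library left out. SLC2A2 and SLC37A4 fell further in Glycyrrhiza than in SDT, PMT, Atractylodis and Ginseng. Against Poria their differences, -0.03 and 0.13, did not pass (edgeR adjusted p = 0.844 and 0.352). The SLC37A4 difference from PMT was lost without PMT High replicate 2 (log2 -0.31, edgeR adjusted p = 0.0527). Members called in these comparisons were 7 of 9 against SDT, PMT, Atractylodis and Ginseng (44.2%, 39.3%, 45.9% and 45.4% of all genes) and 5 of 9 against Poria (45.6%).

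For Poria against SDT, PMT, Atractylodis and Ginseng, 6, 6, 6 and 7 of 9 passed, beside 22.9%, 19.4%, 19% and 19% of all genes. SLC2A2 fell further in Poria by 0.61 to 0.72, SLC37A4 by 0.45 to 0.62 and PCK2 by 0.33 to 0.43, in all 4 tests and in every fit with a library left out. PPARGC1A and TAT rose further by 0.37 to 0.50 and 0.45 to 0.67, also in all 4. Of these, 2 PPARGC1A tests (against PMT and Atractylodis) and 3 TAT tests (against SDT, PMT and Atractylodis) were lost in at least 1 fit with a library left out, at edgeR adjusted p = 0.0509 to 0.117 and 0.0533 to 0.171. G6PC1 fell further in Poria than in SDT by 0.64 (edgeR adjusted p = 0.0223), lost without SDT High replicate 1, SDT Low replicate 1, Poria High replicate 1 or Poria Low replicate 2 (0.0504 to 0.101). The differences from PMT (-0.39), Atractylodis (-0.04) and Ginseng (0.30) did not pass.

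**Figure D3:**
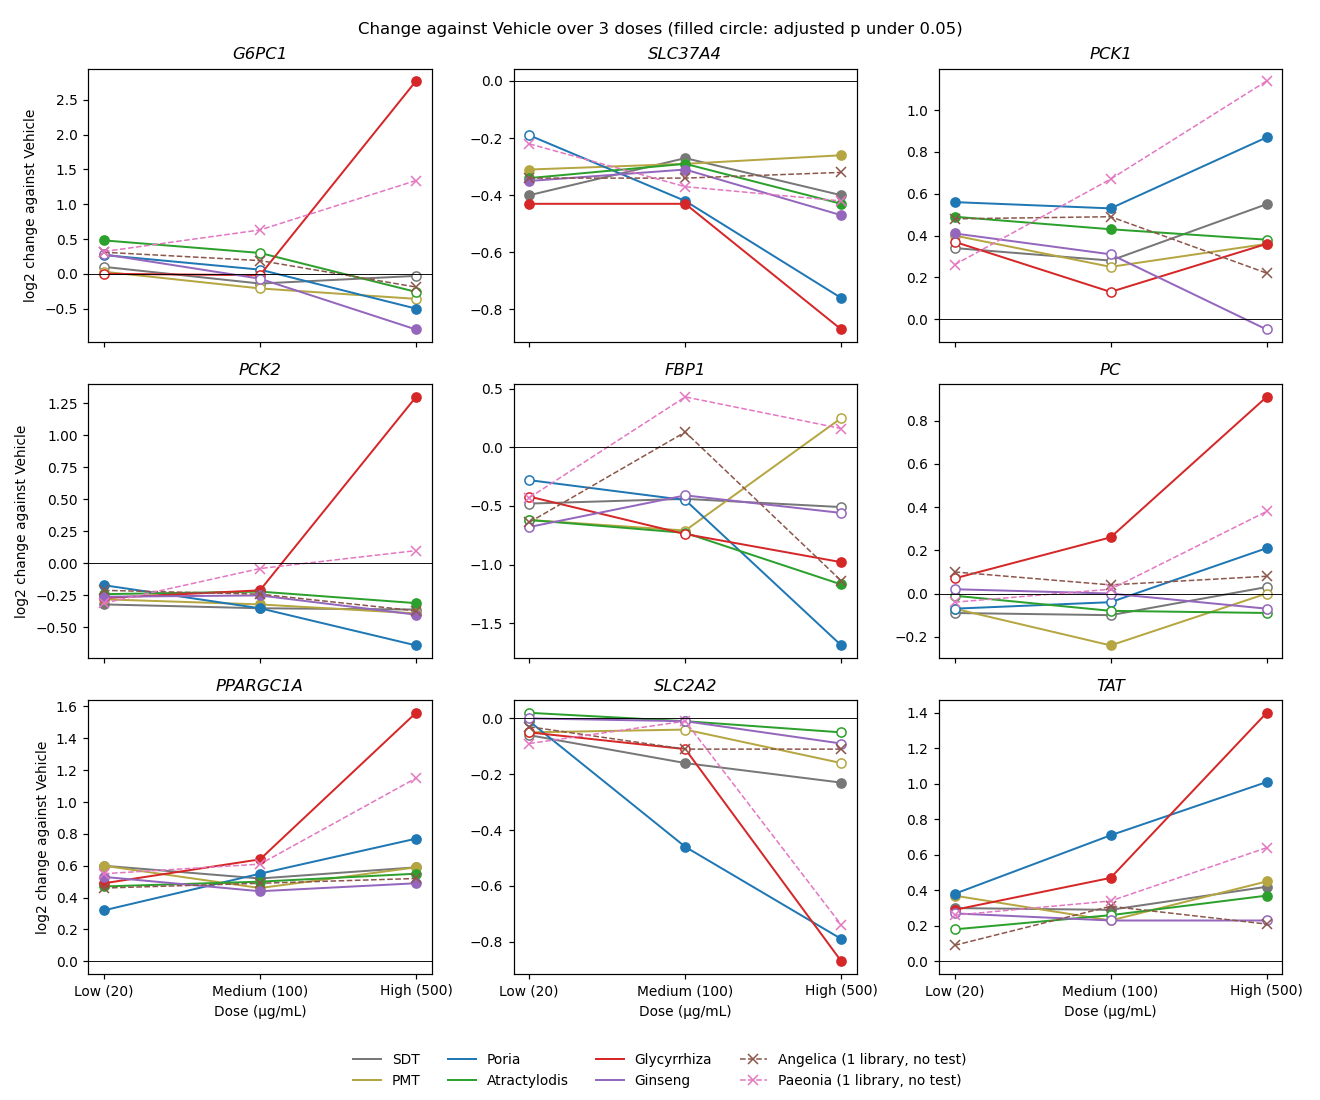
Log2 change against vehicle (y axis) at 20, 100 and 500 µg/mL (x axis) for the 9 genes. Solid lines are edgeR estimates in 6 extracts, with filled circles where the test was passed; dashed lines with crosses are single libraries of Angelica and Paeonia, without a test. PPARGC1A lies above 0 and SLC37A4 below 0 at every dose of every extract.

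The series also compares every extract and dose with vehicle. These 18 comparisons of replicated groups share the same 3 vehicle libraries, so a vehicle value that is high or low enters them all. At High, the genes called were 9 of 9 in Glycyrrhiza and in Poria, 6 in SDT, 5 in Atractylodis and 4 in PMT and in Ginseng. Of all genes, 61.3% were called in Glycyrrhiza, 51.3% in Poria, 34.3% in SDT, 33.9% in Atractylodis, 29.3% in PMT and 36.3% in Ginseng. At Medium 3 to 6 of 9 were called, beside 28.2% to 38.7% of all genes, and at Low 4 or 5 of 9, beside 19.2% to 35.8%. The 9 calls of Glycyrrhiza High fell to 7 or 8 in every fit with 1 of its own or the vehicle libraries left out. PCK1, FBP1 or both were lost. DESeq2 called 8. Poria High kept 8 or 9 calls in such fits, and DESeq2 called 9. Leaving out 1 library took Poria Low from 4 calls to 2 (vehicle replicate 2) or 0 (Poria Low replicate 2). It took SDT Medium from 5 to 3 (vehicle replicate 1, SDT Medium replicate 1 or 3), Atractylodis High from 5 to 3 (vehicle replicate 2, Atractylodis High replicate 3), Atractylodis Low from 5 to 3 (vehicle replicate 1, Atractylodis Low replicate 2) and PMT Low from 4 to 2 (PMT Low replicate 3).

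PPARGC1A had its lowest libraries in vehicle, at 21.9, 18.7 and 22.5 CPM, and no library of a treated group was below 24.1. It was higher than vehicle in each of the 18 comparisons, from a log2 of 0.32 in Poria Low to 1.56 in Glycyrrhiza High, with edgeR adjusted p from 9.41e-21 to 0.0097. Outside Glycyrrhiza and Poria the changes were close together at every dose, between 0.44 and 0.60. The Poria Low call was lost without vehicle replicate 2 (log2 0.24, edgeR adjusted p = 0.11) or Poria Low replicate 2 (log2 0.26, 0.0798).

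SLC37A4 and PCK2 were lower than vehicle in nearly all groups. Vehicle held 56.9, 47.5 and 54.7 CPM of SLC37A4, and the changes ran from -0.87 in Glycyrrhiza High and -0.76 in Poria High to -0.19 in Poria Low. Of the 18 comparisons 17 passed, and the exception, Poria Low, had an edgeR adjusted p of 0.0573, and of 0.0218 without vehicle replicate 2 (log2 -0.27). All 3 PMT calls rested on single libraries: without PMT replicate 3 the High change was -0.10 (edgeR adjusted p = 0.508), the Medium change -0.17 (0.258) and the Low change -0.25 (0.116). PMT High was also lost without vehicle replicate 1 (log2 -0.21, edgeR adjusted p = 0.0791). PCK2 was lower in 17 comparisons, from -0.64 in Poria High to -0.17 in Poria Low, and higher by 1.3 (SE 0.05, edgeR adjusted p = 2.54e-26) in Glycyrrhiza High. The Poria Low call for PCK2 was lost without vehicle replicate 2 or Poria Low replicate 1 or 2 (log2 -0.15 to -0.14, edgeR adjusted p = 0.0678 to 0.0881).

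TAT and PCK1 were called higher than vehicle in part of the groups, and these calls depended more on single libraries. Over the 18 comparisons the log2 changes ran from 0.18 to 1.40 for TAT and from -0.05 to 0.87 for PCK1. The vehicle libraries of TAT read 4.23, 3.43 and 4.94 CPM, a wide spread for the size of the differences. TAT passed in 12 of 18 comparisons, led by Glycyrrhiza High (log2 1.40, SE 0.10) and Poria High (1.01, SE 0.11). Without vehicle replicate 2, its lowest vehicle library, 4 of the 18 comparisons passed, 8 passed without replicate 1 and 17 without replicate 3, its highest. The calls gained without replicate 3 were Ginseng High, Medium and Low, PMT Medium and Atractylodis Medium (log2 0.36 to 0.40, edgeR adjusted p = 0.0102 to 0.0418). The 4 that passed in every fit with a library left out were the High and Medium doses of Glycyrrhiza and Poria. PCK1 read 7.07, 7.97 and 7.49 CPM in vehicle and passed in 8 of 18 comparisons, with the highest change in Poria High (0.87, SE 0.16, edgeR adjusted p = 9.49e-06). Only 2 of the 8 calls, Poria High and SDT High (0.55), passed in every fit with a library left out. Without vehicle replicate 1 there were 4 calls, and without replicate 2 or 3 there were 5. Atractylodis High was gained without its replicate 1 (log2 0.51, edgeR adjusted p = 0.02). With only the groups compared in the fit, PCK1 also passed in PMT High, Atractylodis High, SDT Medium and Ginseng Medium. At that setting it passed too in the Low doses of SDT, PMT and Glycyrrhiza (edgeR adjusted p = 0.00233 to 0.0179 over these groups).

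G6PC1 was higher than vehicle in Glycyrrhiza High (2.77, SE 0.13) and in Atractylodis Low (0.48, SE 0.14, edgeR adjusted p = 0.00681), and lower in Ginseng High (-0.80, SE 0.15, 4.22e-05) and Poria High (-0.50, SE 0.15, 0.00511). The Atractylodis Low call was lost without vehicle replicate 1 (log2 0.39, edgeR adjusted p = 0.0558) or Atractylodis Low replicate 2 (0.40, 0.0519), and that of Poria High without Poria High replicate 1 (-0.36, 0.0691). Without vehicle replicate 3, 6 comparisons passed, with Atractylodis Medium (0.42, edgeR adjusted p = 0.0418) and Ginseng Low (0.39, 0.0475) gained. Atractylodis Medium also passed without its replicate 1 (0.51, edgeR adjusted p = 0.00307). SLC2A2 was lower in 5 comparisons: High of Glycyrrhiza (-0.87), Poria (-0.79) and SDT (-0.23), and Medium of Poria (-0.46) and SDT (-0.16). The SDT Medium call was lost without vehicle replicate 1 or 3 or SDT Medium replicate 1 or 3 (log2 -0.17 to -0.14, edgeR adjusted p = 0.0516 to 0.124). At the Low dose SLC2A2 lay within -0.06 to 0.02 of vehicle in all 6 extracts and was not called in any.

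PC was higher than vehicle in Glycyrrhiza High (0.91, SE 0.06) and Medium (0.26, SE 0.06) and in Poria High (0.21, SE 0.06), and lower in PMT Medium (-0.24, SE 0.07). The last 2 calls were lost without Poria High replicate 3 (log2 0.15, edgeR adjusted p = 0.0548) and without PMT Medium replicate 2 (-0.22, 0.0943). FBP1 was lower than vehicle, which held 10, 13 and 11 counts, in the High doses of Poria (-1.69, SE 0.42), Atractylodis (-1.17, SE 0.36) and Glycyrrhiza (-0.98, SE 0.35). The summed counts were 7, 13 and 16 against 34, and the 95% intervals of the ratios, for counting error, were 0.112 to 0.688, 0.211 to 0.848 and 0.255 to 0.921. The Atractylodis and Glycyrrhiza calls were lost without vehicle replicate 2 (edgeR adjusted p = 0.0765 and 0.075) and in other fits with a library left out.

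Angelica and Paeonia had 1 library per dose and were given no test. Paeonia High read 51.1 CPM of G6PC1, 46.6 of PPARGC1A and 16.7 of PCK1, each past 2-fold above the vehicle mean (log2 ratios of 1.34, 1.15 and 1.14), where 3.66% of all genes were. The PCK1 value is the highest among the 60 libraries. Within Paeonia, G6PC1 read 25.1, 31.2 and 51.1 CPM at Low, Medium and High. SLC2A2 in Paeonia High was 21.5 CPM, a ratio of 0.599 to vehicle. PCK2, at 178 CPM, was near the vehicle mean of 166. In Angelica the 3 libraries read 25.1, 23.0 and 17.6 CPM of G6PC1 from Low to High, and apart from FBP1 (3 counts in Angelica High, ratio of 0.340 to vehicle by counts, 95% interval 0.0669 to 1.08) no member was past 2-fold (3.46% of all genes were in Angelica High).

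Other genes of the pathway were read from lists for the 2 extracts with the most calls. Of all genes tested, 28.6% rose and 27.7% fell in Glycyrrhiza High against Low, and 20.1% rose and 18.4% fell in Poria. Each list count in this and the following paragraphs stands beside these shares, and no list was tested as a set. The lists were chosen with earlier results of these data known. Of the 8 reversible enzymes between phosphoenolpyruvate and glucose 6-phosphate, which serve glycolysis as well, 7 fell and none rose in Glycyrrhiza High against Low (median log2 -0.54), and in Poria 5 rose and none fell (median 0.30). In Glycyrrhiza PGAM1, phosphoglycerate mutase, fell from 305 to 145 CPM (log2 -1.08, SE 0.06), and PGK1, TPI1 and ENO1 fell by 0.74, 0.65 and 0.62. In Poria ALDOA, aldolase A, rose from 1374 to 1985 CPM (log2 0.53, SE 0.05), and GAPDH, GPI and ENO1 rose by 0.47, 0.37 and 0.31.

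Of 15 tested genes of the opposing glycolytic steps, 5 rose and 8 fell in Glycyrrhiza (median -0.21) and 8 rose and 3 fell in Poria (median 0.45). PFKFB3, which makes the glycolytic activator fructose 2,6-bisphosphate, fell from 10.6 to 1.52 CPM in Glycyrrhiza (log2 -2.80, SE 0.38) and rose from 5.48 to 13.1 CPM in Poria (1.27, SE 0.31). Its vehicle mean was 2.22 CPM. GCKR, the glucokinase inhibitor, rose by 2.26 (SE 0.07) in Glycyrrhiza, to 32.4 CPM, and PFKFB1, the liver isoform of the same bifunctional enzyme, by 1.36. The hexokinase genes HK1 and HK2 rose by 1.44 and 0.67 in Poria.

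Among 16 tested genes of substrate entry, 6 rose and 6 fell in Glycyrrhiza, and 5 rose and 4 fell in Poria. LDHA, lactate dehydrogenase A, fell by 1.19 (SE 0.05) in Glycyrrhiza and rose by 0.44 (SE 0.05) in Poria. SLC38A4, an amino acid transporter, fell in both, by 2.07 (SE 0.17) and 1.32 (SE 0.16), and the serine dehydratase relative SDSL rose by 1.69 in Glycyrrhiza. AQP9, the glycerol channel, was barely counted (6 against 24 counts in Glycyrrhiza High and Low). Of 12 tested genes of glycogen metabolism, 2 rose and 8 fell in Glycyrrhiza, led by the phosphatase subunit PPP1R3C (-1.28, SE 0.13) and PGM1 (-0.89), and 4 rose and 4 fell in Poria.

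Of 28 transcriptional regulators, 12 rose and 8 fell in Glycyrrhiza and 4 rose and 5 fell in Poria. CEBPB rose by 1.43 (SE 0.13), KLF15 by 1.39 (SE 0.10) and the CREB coactivator CRTC3 by 0.91 (SE 0.09) in Glycyrrhiza, and FOXA1 fell by 0.94. In Poria NR4A1, an early-response nuclear receptor, rose by 1.21 (SE 0.10) and CEBPA fell by 1.13 (SE 0.07), from 83.4 to 38.2 CPM. Of 8 tested genes known to be raised in fasting or lowered by insulin, 2 rose and 4 fell in Glycyrrhiza and 2 rose and 2 fell in Poria. IGFBP1 rose by 2.55 (SE 0.25) and 1.72 (SE 0.25), and CPT1A, the gate of mitochondrial fatty acid oxidation, by 1.66 (SE 0.07) and 0.26 (SE 0.07). Of 21 tested hormone and energy signalling genes 7 rose and 6 fell in Glycyrrhiza and 8 rose and 3 fell in Poria, with TRIB3, an AKT-binding pseudokinase, at 1.71 (SE 0.06) in the first and the phosphodiesterase PDE4D at 0.58 (SE 0.08) in the second.

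All 11 tested genes on a list of ATF4 and its targets rose in Glycyrrhiza (median 1.71). The list shares TRIB3 and CEBPB with those above. SLC7A11 rose by 2.57, DDIT3 by 2.46, ASNS by 2.44 and ATF4 itself by 0.80. In Poria 5 of the 11 rose, among them SLC7A11 (1.28), ATF3 (0.68) and VLDLR (0.49). Another 4 fell, among them PHGDH (-0.37) and ATF4 (-0.22), and the median was 0.20. PCK2, itself a known ATF4 target, rose in Glycyrrhiza and fell in Poria, and a link of these changes to ATF4 was not tested. Among 6 tested paralogs of the members, 3 rose and 2 fell in Glycyrrhiza and 3 rose in Poria. The ubiquitous phosphatase G6PC3 rose by 0.60 (SE 0.06) in Glycyrrhiza, the phosphate-linked transporter SLC37A2 by 1.45 and 0.94, and the glucose transporter SLC2A3 fell from 175 to 19.5 CPM in Glycyrrhiza (log2 -3.17, SE 0.14). SLC2A1 fell by 0.51 in Glycyrrhiza and rose by 0.77 in Poria.

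**Figure D4:**
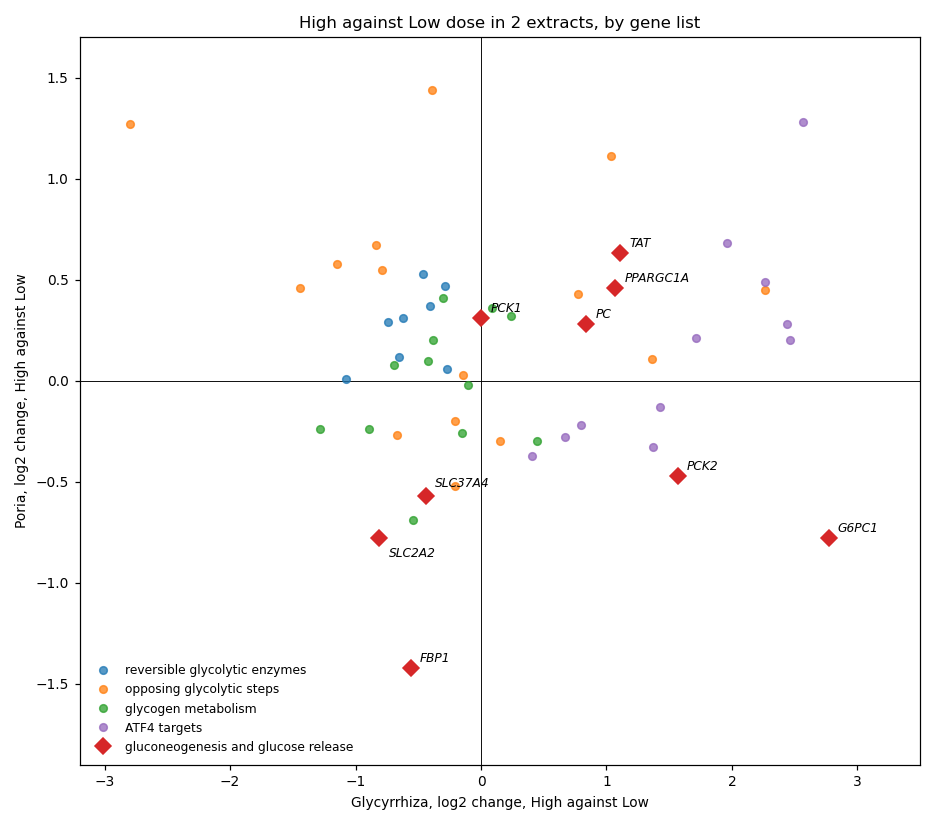
Log2 change of High against Low in Glycyrrhiza (x axis) and in Poria (y axis), for the 9 genes (red diamonds, named) and 4 lists of pathway and stress genes (circles). G6PC1 and PCK2 lie at the lower right, risen in Glycyrrhiza and fallen in Poria, while TAT, PPARGC1A and PC lie at the upper right and SLC2A2 and SLC37A4 at the lower left.

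The 9 genes did not form a single pattern over the 25 group means of log2 CPM. Pearson correlations, given as a description of means that share libraries and scaling, were highest for G6PC1 with PCK2 (0.92), PPARGC1A with TAT (0.84) and PPARGC1A with PC (0.83). They were lowest for SLC2A2 with TAT (-0.90) and SLC37A4 with TAT (-0.84). PCK1 and PCK2, which catalyse the same reaction, stood at 0.05. Among all tested genes, those most like a member over the 25 means were ERBB3 (0.952), TP53INP1 and CYP4F2 for G6PC1, and SESN2 (0.964), MAPK8IP2 and PRSS8 for PCK2. For PC they were SLC25A30 (0.96), AZGP1 and IFRD1, and for PPARGC1A TTC17 (0.955), RICTOR and ZBTB21. For SLC2A2 they were CPS1 (0.962), C8A and SLC16A10, for TAT DNAJB9 (0.964), FAM177A1 and MPZL2, and for SLC37A4 ASF1B (0.955), RMI2 and LARGE2. PCK1 was closest to CSGALNACT1 (0.869), FAM78A and P4HA1, and FBP1, at few counts, to EIF2AK3-DT (0.753), MYO1A and GANAB.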

How the data were processed

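mRNA libraries (60) of HepG2 were prepared with a directional kit and sequenced as paired reads, per the labels' protocols. The authors deposited RSEM gene-level expected counts, not normalised. Per the submitters' processing notes, reads passed FastQC 0.11.9 and Trim Galore 0.6.5, STAR 2.7.3a and RSEM 1.3.3 on GRCh38; the annotation release and strand setting are not given in the sources used here. The table has 60675 genes and 270 columns, of which 210 were not used, and 23.4% of nonzero values are not whole (tolerance 0.005). Counts were rounded. Genes were kept by filterByExpr (16284), given TMM factors, and then fitted in edgeR 4.0.16 (R 4.3.3; quasi-likelihood test, 1 coefficient per group, 54 libraries of 19 groups, 35 residual degrees of freedom, Benjamini-Hochberg over all genes, threshold 0.05). The fold changes carry edgeR's prior count of 0.125. Levels are CPM; log2 CPM used a prior count of 2. Between-replicate variation was 5.62%. DESeq2 1.42.0 was an alternative. The script was tested on simulated data. Symbols were found for 56558 identifiers, positions for 57055 in GENCODE 29. Levels per kilobase use the longest protein-coding transcript of each gene in the GENCODE 29 basic set.

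The members and lists were chosen with earlier results of these data known. Named genes are all 9 members in every comparison; from each list at most 4 genes that passed in Glycyrrhiza or Poria, High against Low, by absolute log2 change; and the 3 genes most like each member over group means. Replicate numbers were not taken as pairs. A wortmannin control named in the series text was not analysed here.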

Additional observations from a re-analysis of the deposited data

Results flagged for a closer look

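Results stand here because the High against Low change of a member differed between 2 extracts by the edgeR interaction test, on the log2 scale; no group had 4 to 10 libraries, so single deviating libraries were not screened for. Glycyrrhiza minus SDT gave 2.91 for G6PC1, 1.61 for PCK2, 0.72 for PC, 1.08 for PPARGC1A, 0.98 for TAT, -0.44 for SLC37A4 and -0.64 for SLC2A2. Glycyrrhiza minus PMT gave 3.16 for G6PC1, 1.69 for PCK2, 0.77 for PC, 1.08 for PPARGC1A, 1.02 for TAT, -0.49 for SLC37A4 and -0.70 for SLC2A2. Glycyrrhiza minus Atractylodis gave 3.51 for G6PC1, 1.64 for PCK2, 0.92 for PC, 0.99 for PPARGC1A, 0.92 for TAT, -0.36 for SLC37A4 and -0.75 for SLC2A2. Glycyrrhiza minus Ginseng gave 3.85 for G6PC1, 1.71 for PCK2, 0.93 for PC, 1.11 for PPARGC1A, 1.15 for TAT, -0.32 for SLC37A4 and -0.71 for SLC2A2. Glycyrrhiza minus Poria gave 3.55 for G6PC1, 2.04 for PCK2, 0.56 for PC, 0.61 for PPARGC1A and 0.48 for TAT.

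Poria minus SDT gave -0.64 for G6PC1, -0.57 for SLC37A4, -0.43 for PCK2, -0.61 for SLC2A2, 0.47 for PPARGC1A and 0.51 for TAT. Poria minus PMT gave -0.62 for SLC37A4, -0.35 for PCK2, -0.67 for SLC2A2, 0.47 for PPARGC1A, 0.54 for TAT and, at few counts, -2.28 for FBP1. Poria minus Atractylodis gave -0.49 for SLC37A4, -0.40 for PCK2, -0.72 for SLC2A2, 0.36 for PC, 0.37 for PPARGC1A and 0.45 for TAT. Poria minus Ginseng gave -0.45 for SLC37A4, -0.33 for PCK2, -0.69 for SLC2A2, 0.77 for PCK1, 0.37 for PC, 0.50 for PPARGC1A and 0.67 for TAT. Of the PC and PCK1 differences, those from Ginseng passed in every fit and setting run.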

How the results depend on the processing

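No member changed direction while called under any setting. DESeq2's size factors and leaving out mitochondrially encoded genes gave the same call in all 351 member tests. Counts of members called that moved by over 1.5 times under other settings are given next, and smaller moves are left out. Without the filter on low counts, Ginseng High vs Low had 2 calls (against 1) and PMT High vs Low and Ginseng Medium vs Low 1 each (against 0). With the replicate block, and with the replicate block within set code, Ginseng High vs Low had 2 calls and Glycyrrhiza Medium vs Low 1 (against 0); the block moved no other count of member calls by over 1.5 times. The block within set code also gave a call for PCK1 in Poria High vs Low (log2 0.30, edgeR adjusted p = 0.0102) and in Poria minus Atractylodis (0.38, 0.0379). In none of the 30 pairs of groups compared did all same-numbered libraries correlate over 0.1 in their deviations (mean r -0.0755 to 0.113, highest in Atractylodis High with Low); Atractylodis High with Medium, not compared, did (lowest 0.11, mean 0.135). DESeq2's test also gave Glycyrrhiza Medium vs Low 1 call. With only the groups compared in the fit, the calls were 2 in Ginseng High vs Low, 1 in Poria Medium vs Low (against 4), 1 in Glycyrrhiza Medium vs Low, 1 in Poria Low vs Vehicle (against 4) and 3 in Poria minus Atractylodis (against 6). Leaving out 1 library at a time gave 1 to 2 calls in Ginseng High vs Low, 1 to 5 in Poria Medium vs Low, 0 to 1 in Glycyrrhiza Medium vs Low, 3 to 6 in Atractylodis High vs Vehicle, 3 to 5 in SDT Medium vs Vehicle, 2 to 4 in PMT Low vs Vehicle, 0 to 4 in Poria Low vs Vehicle and 3 to 5 in Atractylodis Low vs Vehicle. The cause of these moves was not tested. Over all genes, calls with only the groups compared went from 6263 to 3977 in Poria High vs Low, 1046 to 338 in Atractylodis High vs Low, 173 to 102 in SDT and 84 to 39 in PMT High vs Low, 2530 to 854 in Poria and 570 to 941 in Glycyrrhiza Medium vs Low and 3129 to 1037 in Poria Low vs Vehicle. For Poria minus SDT, PMT, Atractylodis and Ginseng they went from 3733, 3159, 3090 and 3088 to 2395, 1351, 1801 and 2055. Without the filter on low counts, SDT and PMT High vs Low had 410 and 230, and Medium vs Low went from 1, 0, 0 and 0 in SDT, PMT, Atractylodis and Ginseng to 74, 59, 63 and 93; under the other settings that use all libraries these 4 stayed at 9 or fewer. Low counts limit FBP1 alone among the members.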
